A study of Arabidopsis thaliana with 4 samples.

Results

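*HAT1* (AT4G17460), *HAT2* (AT5G47370) and *HAT3* (AT3G60390) encode class II homeodomain-leucine zipper (HD-ZIP) transcription factors of *Arabidopsis thaliana*. They were taken as the genes of this class that could be tied to a probe set, and each was read by 1 probe set (245362_at, 248801_at and 251374_at) of the 22746 tested. A list of the class held 10 loci, and the other members were not analysed here because no probe set could be named for them. Transcript levels were measured in whole, light-grown seedlings of the Columbia (Col-0) wild type, 5 days old. One group spent 2 h immersed in water that contained 10 µM IAA (indole-3-acetic acid, an auxin made by the plant itself), and the mock group spent 2 h in water alone. Total RNA from 2 samples per group was hybridized to Affymetrix arrays, 1 array per sample. By the study's methods the 2 samples of a group were independent biological replicates.

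In HD-ZIP proteins the homeodomain contacts DNA, and the leucine zipper beside it holds 2 such proteins together as a dimer. Class II members act mainly as repressors of transcription, and many carry a short leucine-rich motif through which corepressors of the TOPLESS family can be recruited. The class is best known from shade avoidance, through *ATHB2*, and from the patterning of leaves and fruit. Auxin acts on transcription by causing the degradation of Aux/IAA repressors, which frees Auxin Response Factors (ARFs) at their target promoters. *HAT2* has been described as an early auxin-inducible gene. *HAT3* acts together with *ATHB4* and *ATHB2* in the formation of the upper leaf side. *HAT1* has been linked to brassinosteroid (BR) signaling, where its protein is a partner of BES1 and a target of the kinase BIN2.

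All 3 genes were higher after IAA, by different amounts. *HAT2* rose 9.97-fold, *HAT1* rose 2.26-fold and *HAT3* rose 1.58-fold. In each of them the lower IAA value was above the higher mock value, an arrangement seen in 24.5% of all tested probe sets, and the opposite one was seen in 29% of them. All 3 passed the rule used for calls, a limma adjusted p below 0.10 with a log odds of change (B) above 0. That rule called 337 probe sets increased (1.48% of those tested) and 85 decreased (0.374%). These counts moved with the arrays used: there were 158 increases and 21 decreases without mock replicate 1, 196 and 20 without mock replicate 2, 162 decreases without IAA replicate 2, and 145 and 10 with the replicate number as a block. In whole seedlings, more RNA per cell and more cells that express a gene cannot be told apart. The median intensity lay between 62.1 and 63.5 on every array. The authors' quantile normalization brings arrays to a like distribution, so these medians cannot show that the samples were alike. Across probe sets, log2 values correlated with r = 0.994 between the IAA arrays and r = 0.997 between the mock arrays. Between an IAA and a mock array, r was at most 0.988.

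*HAT2* had the strongest response. Its intensity, an expression value on a linear scale after normalization by the authors, was 2179 and 1869 on the IAA arrays, against 206.0 and 199.0 on the mock arrays. The group means were 2024 ± 219 with IAA and 202 ± 4.97 in mock (SD, n = 2 each). The 2 IAA arrays differed from each other more than the mock arrays did, but the lower of them was still 9.07 times the higher mock value. The log2 change was 3.32 ± 0.11 (SE), with a 95% interval from 3.05 to 3.59 (limma adjusted p = 0.000254). Ordered by log2 change, *HAT2* stood at place 18 of all 22746 tested probe sets, and all probe sets above it were also called increased. Its IAA arrays lay 0.22 apart on the log2 scale, against a median gap of 0.13 over all probe sets, and its mock arrays lay 0.05 apart, against a median of 0.10.

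*HAT1* showed a smaller change with little spread. It had intensities of 1145 and 1147 on the IAA arrays, against 490.9 and 524.7 on the mock arrays. The means were 1146 ± 1.01 with IAA and 508 ± 23.9 in mock (SD, n = 2 each). The IAA arrays were almost equal, and every IAA value was more than 2 times every mock value, with ratios from 2.18 to 2.34. The log2 change was 1.18 ± 0.09 (SE), with a 95% interval from 0.95 to 1.40 (limma adjusted p = 0.00433). *HAT1* was at place 169 of all tested probe sets by log2 change and at place 151 of the 337 called increased. Its fold lay close to the middle of the called increases, whose median log2 change was 1.09.

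*HAT3* had the smallest change of the 3 genes, also with little spread. It read 85.23 and 82.66 on the IAA arrays, against 51.91 and 54.48 on the mock arrays, with means of 83.9 ± 1.81 and 53.2 ± 1.82 (SD, n = 2 each). All 4 values lay above 37.6, the highest reading among 27 *Bacillus* control probe sets, of which only 1 read above 19.2. The groups were separate, and the ratio of an IAA to a mock array ran from 1.52 to 1.64. The log2 change was 0.66 ± 0.09 (SE), with a 95% interval from 0.44 to 0.88 (limma adjusted p = 0.0270). *HAT3* passed the rule on B narrowly: its B was 0.52, against 7.75 for *HAT2* and 3.75 for *HAT1*, and 60 of the 337 increased probe sets had a lower B. Without the rule on B, limma called 3.87% of all probe sets increased, the 3 HAT genes among them. By log2 change it was at place 507 of all tested probe sets, and of those 507 only 322 were called.

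**Figure D1:**
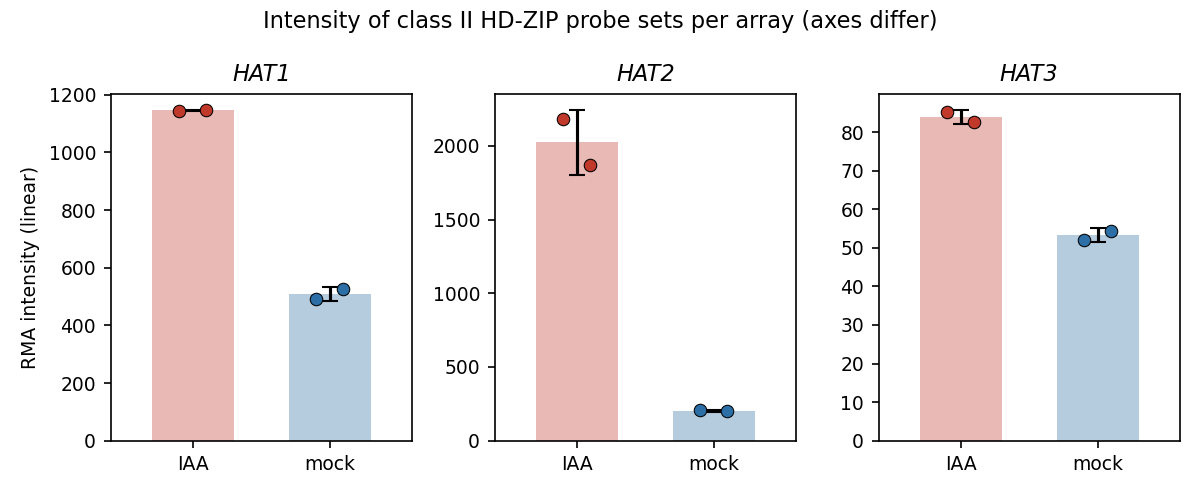
RMA intensity (linear scale, axes differ between panels) of *HAT1*, *HAT2* and *HAT3*. Points are single arrays, bars are means of 2 arrays and error bars are SD, with IAA in red and mock in blue; in every panel both IAA points stand above both mock points, with means of 1146 against 508 for *HAT1*, 2024 against 202 for *HAT2* and 83.9 against 53.2 for *HAT3*.

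The call of *HAT3* was lost in 6 of 14 other settings of the analysis, while *HAT1* and *HAT2* were called in all 14. Of these settings, 2 altered only the thresholds on the same fit, and dropping the rule on B could not lose a call. *HAT3* was not called when any 1 of the 4 arrays was left out, with a log2 change between 0.62 (without mock replicate 1) and 0.69 (without mock replicate 2) and a limma adjusted p between 0.0303 and 0.241. Each of these fits left 1 group with a single array, which was assumed to vary like the other group. It was also not called with a mean-variance trend in limma, or with the replicate number as a block (limma adjusted p = 0.178). When 64 was added to each intensity before the log, its log2 change was 0.34, against 1.08 for *HAT1* and 2.97 for *HAT2*. Under the block the limma adjusted p was 0.0776 for *HAT1* and 0.0203 for *HAT2*, and their log2 changes stayed between 1.08 and 1.22 and between 2.97 and 3.43 over the 14 settings.

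**Figure D2:**
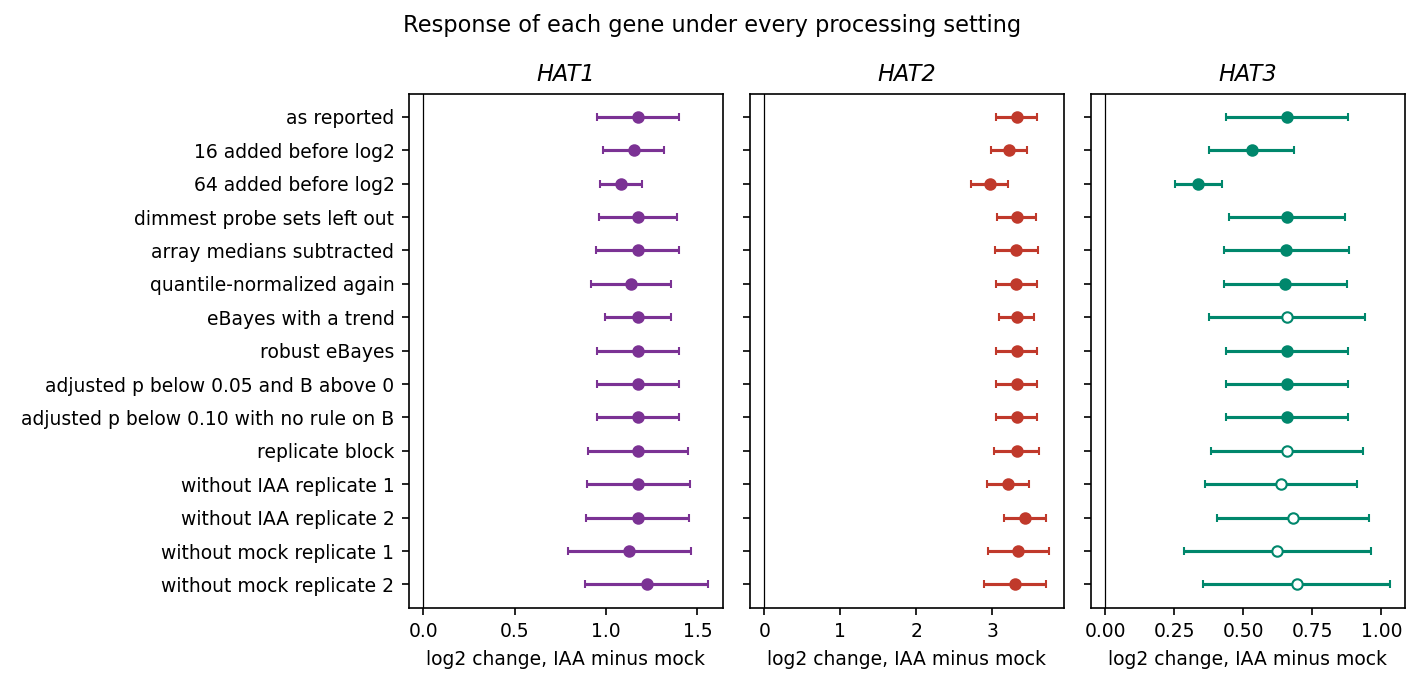
Log2 change, IAA minus mock, of *HAT1*, *HAT2* and *HAT3* (horizontal axis, ranges differ between panels) under each setting of the analysis (rows). Points are limma estimates with 95% intervals, filled where the gene was called and open where it was not; *HAT3* has 6 open points and the other genes have none.

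The spread between replicates was below the typical one for *HAT1* and *HAT3* but not for *HAT2*. With 2 arrays per group, an exact two-sided permutation test of a single gene cannot go below p = 0.333, and each of the 3 genes gave that value. The limma adjusted p instead rests on a model that combines each probe set's own spread with a spread estimated over all probe sets. The residual SD was 0.04 for *HAT3*, 0.05 for *HAT1* and 0.11 for *HAT2* on the log2 scale, against a median of 0.10 over all probe sets, so 2 of the 3 genes varied less between replicates than the typical probe set did. An unadjusted limma p below 0.05 held for 10.1% of all probe sets in the upward direction and 10.6% in the downward direction.

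**Figure D3:**
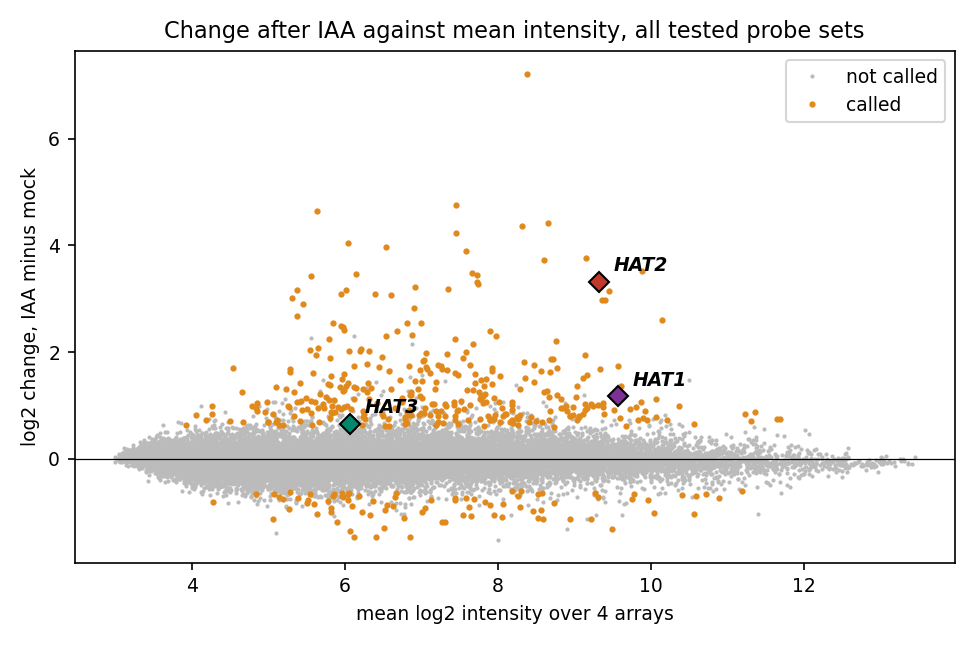
Log2 change, IAA minus mock (vertical axis), against the mean log2 intensity over 4 arrays (horizontal axis) for all 22746 tested probe sets, called ones in orange. *HAT2* (3.32) stands above all uncalled probe sets. *HAT1* (1.18) was at place 169 of all and 151 of the increased, so some uncalled probe sets changed more. *HAT3* (0.66), at places 507 and 322, lies among uncalled probe sets with changes of like or larger size.

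The genes were then compared with each other in the size of the response, over 3 pairs. The log2 change of *HAT2* exceeded that of *HAT1* by 2.14, which is a 4.41-fold larger response. Against *HAT3* the difference was 2.66, or 6.32-fold. *HAT1* exceeded *HAT3* by 0.52, or 1.43-fold. Over the choices of 1 IAA and 1 mock array, these differences ran from 1.96 to 2.33, from 2.51 to 2.81 and from 0.48 to 0.55, so the arrays kept 1 order of response, *HAT2* before *HAT1* before *HAT3*. Each pair gave p = 0.333 in an exact two-sided permutation test, the smallest this design allows, and 0.333 after adjustment over the 3 pairs. With 64 added before the log, the difference between *HAT1* and *HAT3* was 0.75 and that between *HAT2* and *HAT1* was 1.88. Probe sets differ in how fully they register a change, so the order is that of the measured folds.

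Few other HD-ZIP genes could be set beside these. Of 17 class I genes listed, 3 were measured, all named through the study's BR lists, and by limma 0 were called, although 2 were higher at an unadjusted p below 0.05. The one nearest to a call was *ATHB5* (AT5G65310), a class I factor linked to abscisic acid response and germination, which is also on the list of BR-lowered transcripts described further on. It read 453.5 and 423.7 on the IAA arrays, against 278.4 and 297.3 on the mock arrays. The log2 difference, 0.61 ± 0.09 SE, was close in size to that of *HAT3*, but while its adjusted p in limma was 0.0397, its B of -0.29 missed the rule. The remaining class I genes, *ATHB23* and *ATHB52*, had log2 changes of 0.26 and -0.31, and *ATHB23* read at most 30.26, within the range of the *Bacillus* controls. Of 5 class III genes, which pattern the upper leaf side and vascular tissue, only *PHV* was measured, and it was not called (log2 change -0.11 ± 0.14 SE, limma adjusted p = 0.702). None of 16 class IV genes, which act in the epidermis, had a named probe set. The median log2 change was 1.18 for the 3 class II genes and -0.02 over all probe sets, and the class II genes were chosen with their results known.

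Gene groups tied to the known roles of the class were sampled as thinly. Of 16 leaf polarity genes, the YABBY genes *YAB3* and *YAB5* were measured, and neither was called or reached an unadjusted p below 0.05 in limma, with log2 changes of 0.13 and 0.12. Of 16 shade response genes, 3 were measured. The Aux/IAA genes *IAA19* and *IAA29* rose. *IAA19* read 1491 and 1350 with IAA, against 103.2 and 111.4 in mock. *IAA29* read 890.2 and 934.7 with IAA, against 36.76 and 30.9 in mock. Its mock values lay within the range of the *Bacillus* controls, so the size of its rise is uncertain. *IAA19* was named through a list of auxin-regulated transcripts chosen on these same arrays, so its direction is not independent evidence. The third, *YUC2*, an auxin synthesis gene, had a log2 change of -0.37 and was not called. No probe set was named for the 5 genes of the TOPLESS family.

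*HAT1* and *HAT3* both appear on the study's list of transcripts lowered by brassinolide, the most active BR, and *HAT2* appears on neither BR list. Those lists were made from other arrays, of older seedlings in a different medium, so they share no control with the arrays used here, and they were used for membership only. The probe sets of *HAT1* and *HAT3* were given their names through this list, so that 2 of the 3 class II genes measured are on it is not a result. Here *HAT1* and *HAT3* were both higher after IAA. Of the 296 probe sets on the BR-lowered list, 24 were called increased with IAA (8.11%, against 1.48% of all tested). A further 2 were called decreased (0.676%, against 0.374%). All tested probe sets include dim ones. With the dimmest left out, 275 of the 11373 kept were called increased, 23 of them on the list. How many of the list were kept was not counted, so no share of the list can be set beside this. Both IAA arrays were above both mock arrays in 34.8% of the list, against 24.5% of all probe sets, and the median log2 change of the list was 0.03. The 24 made up 7.12% of all 337 increases. *HAT1* was 13th of the 24 in order of log2 change and *HAT3* was 23rd, and over the whole list of 296 they stood at places 14 and 36.

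Of the transcripts that shared this combination, BR-lowered and higher with IAA, the 5 with the largest log2 change are given here. The first was AT2G37030, which had 632.7 and 716.5 with IAA, against 67.0 and 54.98 in mock. *DFL1* and *WES1*, which encode GH3 enzymes that join IAA to amino acids, averaged 2090.0 ± 142 and 2805 ± 167 with IAA, against 241 ± 71.2 and 461 ± 46.1 in mock (SD, n = 2 each). *ACS11*, for an enzyme of ethylene synthesis, averaged 288 ± 81.0 with IAA and 33.5 ± 1.28 in mock (SD, n = 2 each), a mock value near background. AT5G12050 averaged 936 ± 31.1 with IAA and 202 ± 2.13 in mock (SD, n = 2 each). *HAT1*, at 2.26-fold, lay below these 5 in measured change. The count of 24 fell to 15 without mock replicate 1, to 15 without mock replicate 2 and to 12 with the replicate block, and reached 44 without the rule on B.

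For comparison, the list of transcripts raised by brassinolide held 342 probe sets, none of them for the 3 genes described here. Of these, 83 were called increased with IAA (24.3%) and 2 decreased (0.585%, against 0.374% of all tested). The median log2 change was 0.35, and the difference between the lists was not tested. The count of 83 was 54 without mock replicate 1 and 43 with the replicate block. *HAT1* and *HAT3* were among the 24 increases on the BR-lowered list, the list through which their probe sets were named. The BR-lowered list held 7.12% of all increases and the BR-raised list 24.6%. *HAT2*, like most increases, was on neither list. Of 11 BR signaling and synthesis genes listed, 6 were measured, all through the BR lists. The receptor gene *BRI1*, itself on the BR-lowered list, rose 1.78-fold, with 905.2 and 876.9 in IAA, against 478.5 and 522.8 in mock (limma adjusted p = 0.0154). The other 5 were not called, including *BZR1*, which encodes a close relative of BES1 and whose probe set can detect more than 1 transcript, at a log2 change of 0.32, and the synthesis genes *DWF4* (-0.15), *CPD* (-0.33), *BR6OX2* (-0.09) and *ROT3* (-0.54). *ROT3*, like *ATHB5*, missed only on B, which was -0.55, with an adjusted p of 0.0440 in limma. At an unadjusted p below 0.05, 2 of the 6 were higher and 2 were lower.

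**Figure D4:**
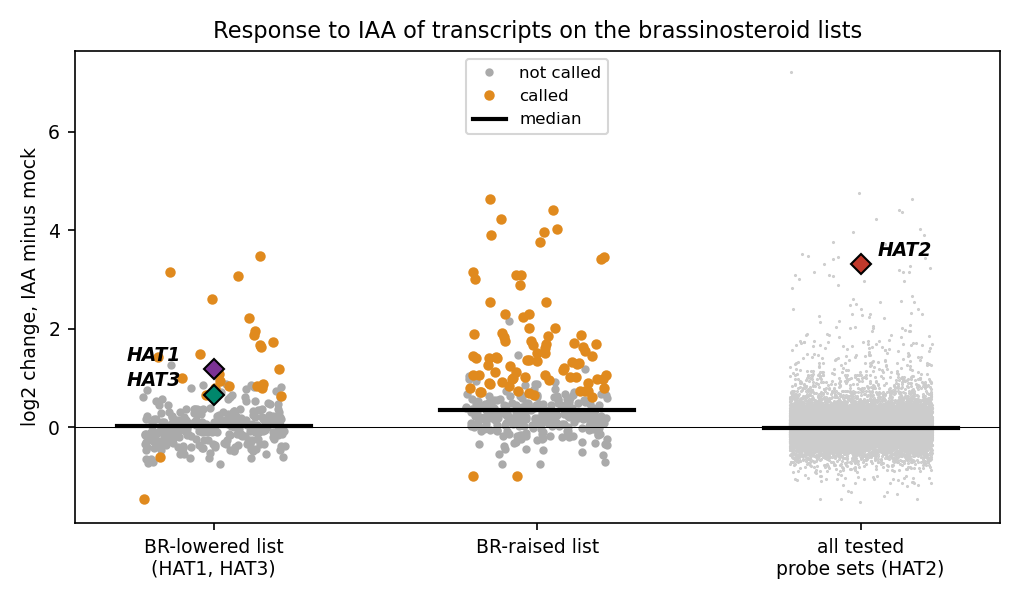
Log2 change, IAA minus mock (vertical axis), of the probe sets on the BR-lowered list (n = 296), on the BR-raised list (n = 342) and of all tested probe sets (n = 22746, called ones not marked), with black lines at the medians of 0.03, 0.35 and -0.02. On the lists called probe sets are orange; *HAT1* (1.18) and *HAT3* (0.66) are marked among the BR-lowered ones, and *HAT2* (3.32), which is on neither list, among all probe sets.

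The genes whose values over the 4 arrays ran most like those of each HAT gene were found by the Euclidean distance between log2 values centred on their mean. For *HAT1* the nearest named gene was *BSK6*, of the brassinosteroid signaling kinase family, at a distance of 0.0154. It had 189.9 and 191.4 with IAA, against 81.59 and 86.3 in mock, a 2.27-fold pattern that followed *HAT1* in each array. AT1G68620 (0.0593) and *CEJ1* (0.0698), an ERF/DREB-type transcription factor gene, came next. For *HAT2* the nearest were *SAUR23* (0.211), a member of the SAUR family of short, rapidly auxin-induced transcripts, *IAA5* (0.253), an Aux/IAA repressor gene, and AT5G02760 (0.270), which encodes a PP2C-type phosphatase. *SAUR23* had 705.4 and 692.4 with IAA, against 69.08 and 60.18 in mock, and its probe set is marked by the array's design as prone to cross-hybridization. For *HAT3* they were AT1G68810 (0.0222), which encodes a bHLH protein, AT4G01110 (0.0316), whose values of 19.02 at most lay within the range of the *Bacillus* controls, and AT3G23090 (0.0339). No named gene came as near to *HAT2* as those of the other genes did. The distance was not scaled to the size of the change or to the replicate spread. By log2 change *HAT2* stood at place 18, where few probe sets lie, against 169 for *HAT1* and 507 for *HAT3*. Its residual SD was 0.11, against 0.05 for *HAT1* and 0.04 for *HAT3*. The larger distances therefore do not show that the pattern of *HAT2* was more singular. All 9 nearest genes were called increased, as likeness to a called gene over 4 arrays all but requires. Of the 9, 6 were named through the auxin lists.

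The increases were also compared with those of the genes beside each HAT gene on its chromosome, 5 protein-coding genes on either side. This comparison was added after the values of the 3 genes were known. Around *HAT2*, 9 of 10 neighbours were measured and by limma 0 were called, with log2 changes from -0.17 to 0.74 and 1 at an unadjusted p below 0.05. The highest, AT5G47380, is the next protein-coding gene. It had 85.82 and 113.1 with IAA, against 55.28 and 63.03 in mock (log2 change 0.74 ± 0.16 SE, limma adjusted p = 0.0810), with B below 0. Around *HAT1*, 9 of 10 were measured and only *ERF6*, the fifth gene along, was called, at 398.4 and 372.7 with IAA, against 125.4 and 148.8 in mock. *ERF6*, an ethylene response factor gene, was named through the auxin lists. The other 8 ranged up to 0.07. Around *HAT3*, 6 of 10 were measured and by limma 0 were called, although 3 had an unadjusted p below 0.05, with log2 changes from -0.38 to 0.61.

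**Figure D5:**
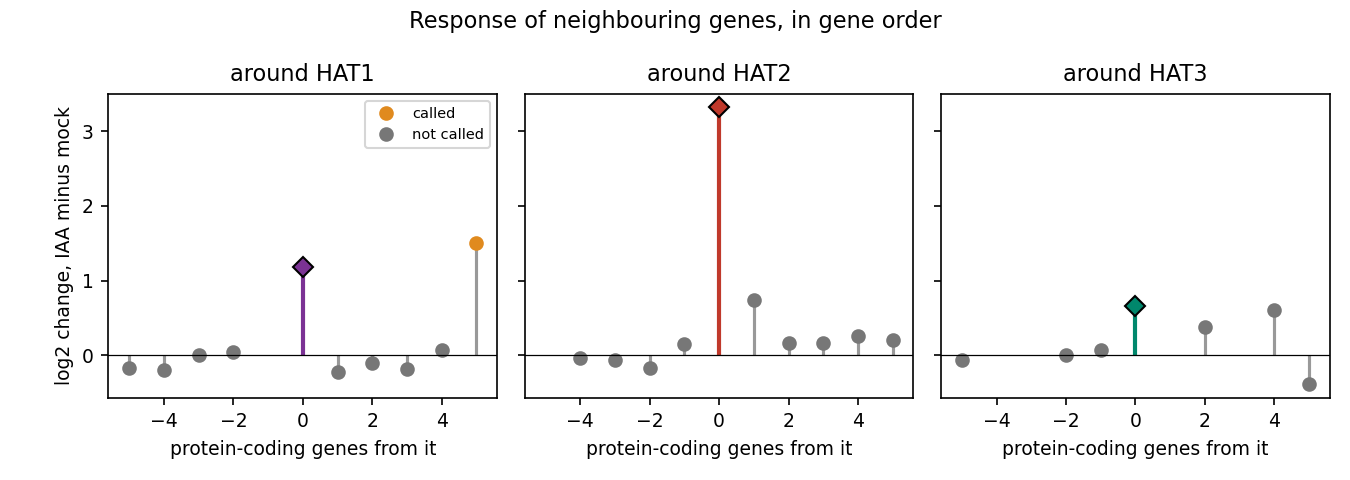
Log2 change, IAA minus mock (vertical axis), of the measured protein-coding neighbours within 5 genes of *HAT1*, *HAT2* and *HAT3* (horizontal axis, position in gene order, not distance). The HAT gene is the diamond at 0; 1 neighbour, *ERF6* near *HAT1*, was called (orange, 2.82-fold), and the highest neighbour of *HAT2* is at 0.74.

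Markers of plant parts were read in the same arrays. Of 7 green tissue genes, *RCA* and *PRK* were measured and had high values, with a summed intensity of 14967 and 14616 in IAA, against 15681 and 15472 in mock. Neither was called or reached an unadjusted p below 0.05 in limma. Of 7 root genes, 6 were measured, and 4 were called decreased, against 0.374% of all tested probe sets. They were the aquaporin gene *TIP2;3*, the endodermal gene *CASP5*, and *PRP3* and *COBL9* of the root hair. Their log2 changes were -1.13, -0.99, -0.82 and -0.65. Of these 4, all but *CASP5* were named through the auxin lists, which were chosen on these arrays. *EXPA7* was lower as well (log2 change -0.40, limma adjusted p = 0.0922) but missed on B, which was -2.30. At an unadjusted limma p below 0.05, 5 of the 6 were lower. The summed intensity of the 6 was 3591 and 3147 in IAA, against 4009 and 4556 in mock. *PYK10*, a glucosidase gene that was not called (log2 change -0.09), held most of that sum, and without it the other 5 summed to 884 and 822 in IAA, against 1602 and 1613 in mock. The part of this difference in the values of the HAT genes was not tested.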

How the data were processed

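The deposited intensity values, 1 per probe set and array on a linear scale, came from the authors' use of rma (Bioconductor package affy), which corrects background, applies quantile normalization and summarizes probes. The package version and the set of arrays normalized together are not given in the sources used here. Quantile normalization hides a change shared by most transcripts. That the scale is linear was judged from the values (7.47 to 11463).

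Values were taken to log2 with a pseudocount of 0. After 64 control probe sets of 22810 were set aside, a model with treatment alone was fitted to the 22746 others in limma 3.58.1 under R 4.3.3 (functions lmFit and eBayes). As in the study's methods, calls required B above 0 together with a Benjamini-Hochberg adjusted p under 0.10. The fit was tested on simulated data. Exact permutation tests were run with scipy 1.17.1 or by full enumeration. Groups came from the sample descriptions, and replicate numbers from the titles.

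*HAT2* was named through the platform's annotation, updated through RefSeq TAIR10.1, and *HAT1* and *HAT3* through the study's BR lists. In all, 13436 probe sets were named by the annotation, 343 by the BR lists and 152 by the auxin lists, and 8815 were not named. The supplementary values and fold changes of the study were not used. Where a locus had several probe sets, the brightest was kept.

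Named genes followed a rule: the 3 HAT genes, the called members of each list (at most 4) or the one with the largest absolute change, the 3 genes nearest to each HAT gene in pattern, and the 5 largest increases on the BR-lowered list. Other names, chromosomal neighbours among them, were chosen after their values were seen. The members and lists were chosen with earlier results of these data known. The alternatives were 2 pseudocounts, a filter on dim probe sets, 2 scalings, 2 variance models, 2 thresholds, a replicate block and leaving out each array.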

Additional observations from a re-analysis of the deposited data

How the results depend on the processing

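Over 14 other settings *HAT1* and *HAT2* kept their direction and call, and *HAT3* kept its direction. Leaving out an array could not reverse a direction, because in each gene both IAA values were above both mock values. Settings that altered only the filter, the variance model, the thresholds or the block left the log2 change as it was. *HAT3* was not called with a trend in limma (log2 change 0.66), with the replicate block (0.66) or without any 1 array (0.62 to 0.69). When B was ignored, 880 increases and 513 decreases were called by limma, with 44 and 16 on the BR-lowered list and 136 and 5 on the BR-raised list. Leaving out 1 array gave 158 to 397 increases and 20 to 162 decreases in limma, 15 to 25 and 1 to 3 on the BR-lowered list, and 54 to 90 and 0 to 4 on the BR-raised list. The 0, without mock replicate 2, stood beside 13 at an unadjusted p below 0.05. The low increases came without mock replicate 1 (158) and mock replicate 2 (196). Leaving out the dimmest probe sets left 1 decrease on the BR-raised list. The causes were not tested.

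The shared numbers are not stated to pair the arrays. Same-numbered arrays showed only a weak tendency to deviate in opposite directions (r = -0.194 across probe sets). With the replicate block limma gave 145 increases and 10 decreases, 12 and 1 on the BR-lowered list and 43 and 1 on the BR-raised list. A crossed pairing, added after the data were seen, gave 299 and 86. In the 3 comparisons between HAT genes, all 7 other settings kept the order. Leaving out an array could not change it, since every choice of 1 IAA and 1 mock array kept it. Precision is limited by having only 2 arrays in each group.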
